A study of Homo sapiens with 8 samples.

Results

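Keratins are the intermediate filament proteins of epithelial cells, and 10 of their genes were followed through every library of an A549 experiment. They were taken by gene symbol: KRT8, KRT18, KRT7 and KRT19, the keratins of simple (single-layered) epithelium; KRT5, KRT6A, KRT14 and KRT17, keratins of stratified epithelium; and the type II keratins KRT80, found in many epithelia, and KRT81, a keratin of hair. They are 10 of the 58302 genes in the files. Of these 10, 9 passed the filter on low counts and were among the 17676 genes tested, and KRT5 did not pass. A549 is an established line from a human lung adenocarcinoma. AXL shRNA cells (2 libraries, P3 and P15) carried a short hairpin RNA against the receptor tyrosine kinase AXL and were set against control shRNA cells (2 libraries, P3 and P15). TP-0903 cells (2 libraries, P4 and P17) were given 40 nM of TP-0903, a small-molecule AXL inhibitor, and were set against control cells (2 libraries, P4 and P17). All groups were grown in the same serum-containing F12K medium. The sources used here do not give the hairpin sequences, the number of hairpins or clones, the time under TP-0903, any vehicle in the control cultures or what the P number stands for. The series asked which pathways might let lung cancer cells resist TP-0903.

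Keratin filaments are built from pairs, each of a type I chain (KRT14, KRT17, KRT18 and KRT19 here) and a type II chain (KRT5, KRT6A, KRT7, KRT8, KRT80 and KRT81 here), and a chain without a partner is degraded. KRT8 with KRT18 is the pair of simple epithelia, to which glandular and lung epithelium adds KRT7 and KRT19. KRT5 with KRT14 is the pair of basal cells in stratified epithelia, while KRT6A and KRT17 come on in wounded or hyperproliferative epidermis.

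Library totals ran between 30067011 and 44217023 expected counts. AXL itself stood at 17.7 and 15.3 TPM (a level scaled for transcript length and library depth) in the AXL shRNA libraries P3 and P15, against 44.5 and 30 TPM in the control shRNA libraries. The groups did not overlap, and the edgeR adjusted p was 0.12, or 8.58e-04 with the P number as a block. Of the lung lineage genes, NKX2-1 did not pass 0.22 TPM and SFTPC did not pass 1.57 TPM in any library, while EPCAM, a surface protein of epithelial cells, lay between 3.0 and 43.2 TPM. The labels call the libraries biological replicates and give no more, so each p-value measures the spread between these libraries. In whole-culture RNA, fewer cells that express a gene and less of its RNA in each cell cannot be told apart.

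Close relatives among the keratins share sequence, which bears on how short reads are assigned to them. Over whole transcripts, the share of 50-base stretches also found in another gene was 43.7% for KRT81, 32.1% for KRT6A, 24.5% for KRT18, 16.8% for KRT14, 16.1% for KRT8 and 9.02% for KRT17. It was 5.7% for KRT7, 2.17% for KRT5, 0.977% for KRT19 and 0.364% for KRT80. KRT8 and KRT18 also overlap on opposite strands over 1084 bases, and KRT81 lies within KRT86 on the opposite strand over 5622 bases. KRT80 lies within the long RNA gene LINC00592 on the opposite strand over 23005 bases. KRT7 overlaps KRT7-AS (2401 bases) and KRT87P (1721 bases) on the opposite strand, and KRT86 (2887 bases) on the same strand. These overlaps are of whole gene spans, introns included, while the shares above count transcript stretches found on either strand. KRT80 shared stretches with KRT8 and the KRT8 pseudogene KRT8P3 alone, and none with LINC00592. KRT7 shared 5.54% of its stretches with KRT7-AS. No strand setting is stated, so reads from stretches that genes share cannot be told apart.

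With AXL shRNA, every simple keratin was higher, and the pair KRT8 and KRT18 stood at about 3 times its control shRNA level on the TPM scale. KRT8 had 7404 and 9066 TPM in the AXL shRNA libraries P3 and P15, against 2266 and 2886 TPM in the control shRNA libraries. The lower AXL shRNA library was well above the higher control shRNA library. KRT8 rose by 1.94 on the log2 scale (SE 0.23, edgeR adjusted p = 0.00124), a 3.84-fold difference. Its partner KRT18 had 6279 and 7289 TPM in the AXL shRNA libraries, against 2096 and 2639 TPM in the control shRNA libraries. These groups did not overlap either, and KRT18 rose by 1.78 on the log2 scale (SE 0.22, edgeR adjusted p = 0.00133). Within each P number, the TPM ratio of AXL shRNA to control shRNA was 3.27 at P3 and 3.14 at P15 for KRT8, and 2.996 at P3 and 2.76 at P15 for KRT18.

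KRT7 and KRT19, the type II and type I keratins that glandular epithelia add to that pair, rose as well, KRT19 the more steeply. KRT7 had 3839 and 3374 TPM in the AXL shRNA libraries P3 and P15, against 1736 and 1679 TPM in the control shRNA libraries, with no overlap. It rose by 1.25 on the log2 scale (SE 0.20, edgeR adjusted p = 0.00322). KRT19, the smallest keratin, had 545 and 736 TPM in the AXL shRNA libraries, against 39.8 and 101 TPM in the control shRNA libraries. All of the AXL shRNA values lay several-fold above the control shRNA values, and KRT19 rose by 3.45 on the log2 scale (SE 0.45, edgeR adjusted p = 0.00157), a 10.9-fold difference. Without the control shRNA library P15 that value was 4.20, and without P3 it was 2.95. The ratio of KRT7 to KRT19 TPM was 7.04 at P3 and 4.58 at P15 in the AXL shRNA libraries, against 43.6 and 16.6 in the control shRNA libraries.

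**Figure D1:**
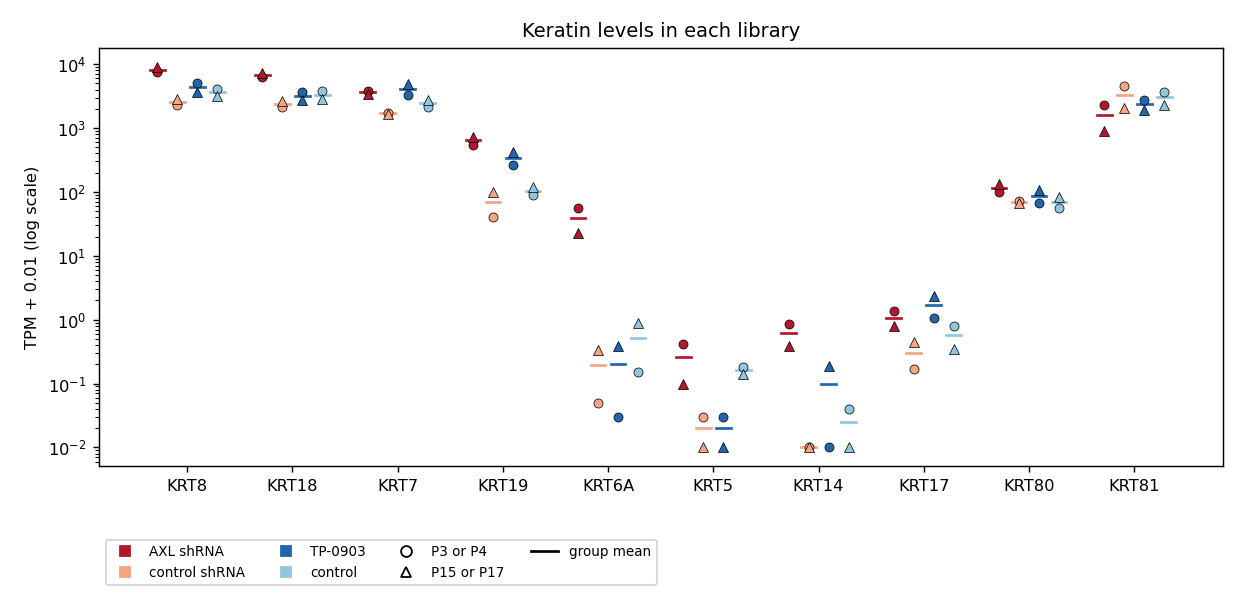
TPM plus 0.01 of each keratin on a log axis in all 8 libraries, with circles for P3 or P4, triangles for P15 or P17 and a line at each group mean. KRT6A stands at 23.0 TPM or more in both AXL shRNA libraries and under 1 TPM in the other 6 libraries, while KRT5, KRT14 and KRT17 stay under 3 TPM throughout.

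Among the stratified keratins, KRT6A stood out by size: it was close to absent in every library but those with AXL shRNA. KRT6A had 56.3 and 23.0 TPM in the AXL shRNA libraries P3 and P15 (3833 and 1274 expected counts), against 0.04 and 0.33 TPM in the control shRNA libraries (2 and 15 expected counts). The groups did not overlap. Summed over each group and scaled for depth, the ratio was 266 (95% exact interval 166 to 458, which covers counting error only), and the fitted rise was 7.97 on the log2 scale (SE 1.18, edgeR adjusted p = 0.00259). The size of the rise depended on single libraries: it was 10.01 without the control shRNA library P15, 7.14 without the control shRNA library P3, 7.20 without the AXL shRNA library P3 and 8.47 without P15. In the TP-0903 libraries P4 and P17 it had 0.02 and 0.37 TPM, against 0.14 and 0.88 TPM in the control libraries.

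KRT6A has closely related neighbours: 32.1% of its 50-base stretches also occur in another gene, while the others occur in none. Its coding sequence of 1692 bases differs from that of KRT6B at 42 bases and from that of KRT6C at 35. The stretch from coding base 436 to 495 is shown because the copies differ there from KRT6A at 5 bases, in capitals in all of the sequences. KRT6A lies at chr12:52492694-52492753, KRT6B at chr12:52451584-52451643 and KRT6C at chr12:52473243-52473302, all on the minus strand of GRCh38.
KRT6A: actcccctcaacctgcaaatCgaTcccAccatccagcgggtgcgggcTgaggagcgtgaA
KRT6B: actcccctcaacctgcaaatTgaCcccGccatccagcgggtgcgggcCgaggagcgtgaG
KRT6C: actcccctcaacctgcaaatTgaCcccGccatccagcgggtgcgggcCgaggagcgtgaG
Among KRT6A, KRT6B and KRT6C, the deposited estimates gave nearly all reads to KRT6A. KRT6B had 0.09 and 0.04 TPM and KRT6C had 0.15 and 0.04 TPM in the AXL shRNA libraries P3 and P15, and both were listed at 0 in the control shRNA libraries.

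The other stratified keratins were near the limit of detection. KRT14, the basal type I keratin, had 41.2 and 15.1 expected counts in the AXL shRNA libraries P3 and P15 (0.85 and 0.38 TPM), against 0 in both control shRNA libraries. Taking the floor as 3 counts over the control shRNA group, it was at least 16.6-fold higher (edgeR adjusted p = 0.0126). It reached the count filter in the AXL shRNA libraries alone, so it could only be tested if it was high there, and its adjusted p was 0.0513 or 0.0509 without the control shRNA library P15 or P3 and 0.055 without the AXL shRNA library P3. KRT16 holds 7.89% of the 50-base stretches of KRT14 and had 147 and 181 expected counts in the AXL shRNA libraries P3 and P15. With KRT16 and the pseudogenes of both added to KRT14, the fitted rise was 3.29 on the log2 scale, against 7.70 for KRT14 alone. KRT5, the basal type II partner of KRT14, had 17 and 2 expected counts in the AXL shRNA libraries P3 and P15, against 1 and 0 in the control shRNA libraries. The depth-scaled ratio of these sums was 16.8 (95% exact interval 2.68 to 700.0, counting error only). The main fit did not test KRT5. With no filter on low counts, all 10 keratins were tested and KRT5 was among the 9 called higher, with most of its counts in AXL shRNA P3.

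KRT17, a type I keratin of injured and basal epithelium, had 1.35 and 0.79 TPM in the AXL shRNA libraries P3 and P15, against 0.16 and 0.43 TPM in the control shRNA libraries. The groups did not overlap, at 25 to 59 expected counts in the AXL shRNA libraries and 5 to 12 in the control shRNA libraries. KRT17 rose by 2.07 on the log2 scale (SE 0.64, edgeR adjusted p = 0.0382). That call was lost without the control shRNA library P15 (2.84, adjusted p = 0.0566) or P3 (1.56, 0.172), without the AXL shRNA library P3 (1.53, 0.176), and against the plain control libraries (0.149).

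KRT80, a type II keratin made in many epithelia, changed least of the keratins that passed. It had 98.5 and 134 TPM in the AXL shRNA libraries P3 and P15, against 71.02 and 66.1 TPM in the control shRNA libraries, with no overlap. KRT80 rose by 1.01 on the log2 scale (SE 0.30, edgeR adjusted p = 0.0336). The call was lost without the control shRNA library P15 (adjusted p = 0.147) or P3 (0.0867), and without the AXL shRNA library P15 (0.151).

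KRT81, a type II keratin of the hair shaft, was abundant in A549, and its values ran the other way. It had 2332 and 912 TPM in the AXL shRNA libraries P3 and P15, against 4475 and 2050.4 TPM in the control shRNA libraries. The groups overlapped, since the AXL shRNA library P3 was above the control shRNA library P15, and the fitted difference of -0.79 on the log2 scale (SE 0.54) did not pass the test (edgeR adjusted p = 0.283). Within a P number the TPM ratio of AXL shRNA to control shRNA was 0.521 at P3 and 0.445 at P15. With the P number as a block, KRT81 fell by 0.80 on the log2 scale (SE 0.13, edgeR adjusted p = 9.29e-04), in a fit that called 51.7% of all genes.

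Of the 9 tested keratins, 8 were called higher and 0 lower with AXL shRNA, where 37.5% of all tested genes were called and 18.5% were called higher. KRT14 is among the 8 only because it was high with AXL shRNA. Without it, 7 of 8 were called, all higher. The median of the 9 was 1.94 on the log2 scale, against -0.01 over all genes. KRT7, KRT8, KRT18, KRT19 and KRT6A passed under each of the 17 other settings tried, with adjusted p-values of at most 0.0234. Without either control shRNA library, 5 keratins were called. On the log2(TPM + 1) scale, limma called 6, and neither KRT17 (adjusted p = 0.0953) nor KRT80 (adjusted p = 0.0808) passed.

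With TP-0903, the simple keratins KRT7 and KRT19 were higher, while KRT8 and KRT18 did not pass the test. KRT19 had 267 and 424 TPM in the TP-0903 libraries P4 and P17, against 88.9 and 119 TPM in the control libraries. The groups did not overlap, and KRT19 rose by 1.75 on the log2 scale (SE 0.42, edgeR adjusted p = 0.0396), a 3.36-fold difference. KRT7 had 3229.8 and 4803 TPM in the TP-0903 libraries, against 2116 and 2783 TPM in the control libraries. Here too the groups did not overlap, and KRT7 rose by 0.81 on the log2 scale (SE 0.19, edgeR adjusted p = 0.0399). With the P number as a block, the adjusted p-values were 2.78e-04 for KRT19 and 0.00321 for KRT7, in a fit that called 26.3% of all genes. Both calls were close to the threshold without it: leaving out 1 library ended the KRT19 call in 6 of 8 cases (adjusted p up to 0.212) and the KRT7 call in 7 of 8 cases (up to 0.217). For KRT19 these were the libraries AXL shRNA P3 and P15, control P4 and P17, and TP-0903 P4 and P17, and for KRT7 all but TP-0903 P4.

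KRT8 had 5093 and 3723 TPM in the TP-0903 libraries P4 and P17, against 4106 and 3182 TPM in the control libraries. The groups overlapped, and the difference was 0.30 on the log2 scale (SE 0.23, edgeR adjusted p = 0.436). KRT18 had 3677 and 2747 TPM in the TP-0903 libraries, against 3758 and 2861 TPM in the control libraries. These ranges lay almost on each other, and the difference was -0.02 on the log2 scale (SE 0.21, edgeR adjusted p = 0.969).

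The remaining keratins gave no call with TP-0903. KRT17 had 1.07 and 2.35 TPM in the TP-0903 libraries P4 and P17, against 0.78 and 0.34 TPM in the control libraries. Those groups did not overlap, but the fitted 1.59 on the log2 scale (SE 0.59) did not pass (edgeR adjusted p = 0.128). KRT80 had 66.0 and 108 TPM in the TP-0903 libraries, against 55.1 and 83.5 TPM in the control libraries, and KRT81 had 2779 and 1947 TPM, against 3717 and 2330.15 TPM. Both overlapped between the groups, with fitted differences of 0.36 (SE 0.30, edgeR adjusted p = 0.479) and -0.32 (SE 0.53, adjusted p = 0.742). KRT14 had 0 and 3 expected counts in the TP-0903 libraries and 1.05 and 0 in the control libraries, and KRT5 had 1 and 0 against 4 and 1. Of the 9 tested keratins, 2 were called with TP-0903, both higher, where 11.3% of all tested genes were called and 4.9% were called higher. The median of the 9 was 0.36 on the log2 scale, against -0.02 over all genes.

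**Figure D2:**
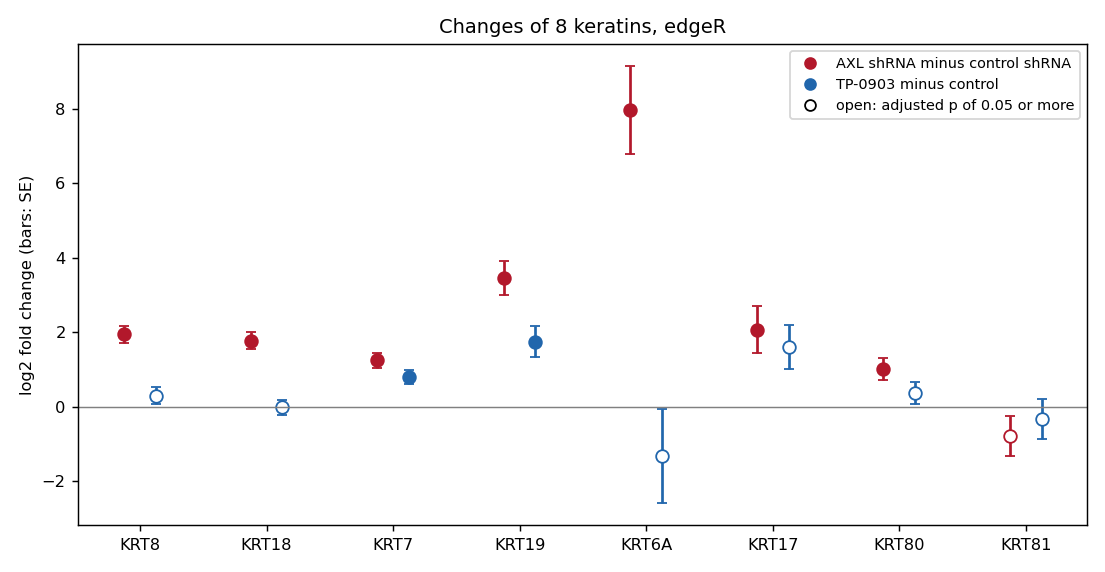
Fitted log2 fold changes with their standard errors for 8 keratins, AXL shRNA minus control shRNA in red and TP-0903 minus control in blue, with open points where the adjusted p was 0.05 or more. KRT14 is left out because its control shRNA libraries are at 0. KRT8 stands at 1.94 with AXL shRNA and 0.30 with TP-0903, and KRT6A at 7.97 and -1.32.

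Whether the TP-0903 and the AXL shRNA effects differed was tested as the difference of the effects, which share no control library. It was -1.64 on the log2 scale for KRT8 (SE 0.32, edgeR adjusted p = 0.0133), -1.79 for KRT18 (SE 0.30, adjusted p = 0.00800) and -9.29 for KRT6A (SE 1.68, adjusted p = 0.00993), lower with TP-0903 in each case. These are 3 of the 9 tested keratins, where 20.6% of all tested genes were called and 10.8% in that direction. KRT8 and KRT18 passed under each of the 16 other settings with this contrast. The KRT6A call was lost without the control library P17 (-7.24, adjusted p = 0.12), and with each library left out in turn the value lay between -12.44 (without TP-0903 P17) and -7.24. The difference was -0.44 for KRT7 (SE 0.27, edgeR adjusted p = 0.291) and -1.70 for KRT19 (SE 0.58, adjusted p = 0.0781). With the P number as a block, KRT19 passed at -1.83 (SE 0.25, edgeR adjusted p = 8.77e-04) and KRT80 at -0.65 (SE 0.22, adjusted p = 0.0486), in a fit that called 36.9% of all genes.

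Keratin levels of the control groups were compared as well. Control shRNA minus control was -0.53 for KRT8 and KRT18 (edgeR adjusted p = 0.178 and 0.163), -0.48 for KRT7 (0.162) and -0.61 for KRT19 (0.382). In this contrast edgeR and DESeq2 called 0 of the 9 keratins, 3 had an unadjusted p under 0.05, and 9.15% of all genes were called. Set against the plain control libraries, a comparison added after seeing the data, AXL shRNA libraries were still higher by 1.40 for KRT8 (SE 0.23, edgeR adjusted p = 0.00358), 1.25 for KRT18 (adjusted p = 0.00449), 2.84 for KRT19 (adjusted p = 0.00281) and 0.77 for KRT7 (adjusted p = 0.0191), where 36.8% of all genes were called.

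Keratin transcripts made up 2.07% and 2.16% of all TPM in the AXL shRNA libraries P3 and P15, against 1.09% and 0.961% in the control shRNA libraries. They made up 1.52% and 1.39% in the TP-0903 libraries P4 and P17, against 1.40% and 1.15% in the control libraries, which overlap. With 2 libraries against 2, the exact permutation test (two-sided) cannot go below p = 0.333, which the AXL shRNA difference reached. The 10 genes held 98.0% to 99.5% of all keratin TPM in every library. In the control libraries the order was KRT8, then KRT18, with KRT7 and KRT81 changing places between P4 and P17 behind them, then KRT19 and KRT80 at 55.1 to 119 TPM. The share of KRT81 in keratin TPM was 11.3% and 4.21% in the AXL shRNA libraries P3 and P15, against 41.2% and 21.3% in the control shRNA libraries.

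**Figure D3:**
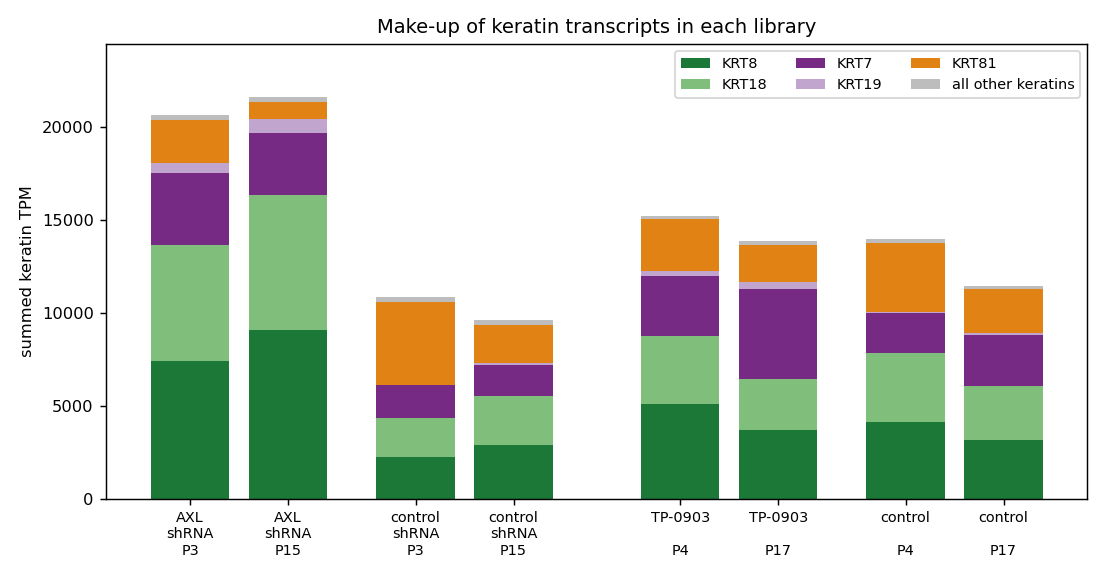
Summed keratin TPM in each library, stacked by gene, with the grey top holding all other keratins. The AXL shRNA columns reach 20650.0 and 21636 TPM, against 10876 and 9614 TPM for control shRNA, with a smaller share of KRT81 and more of all 4 simple keratins.

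The ratio of KRT8 to its partner KRT18, in TPM, stood apart in the TP-0903 libraries. It was 1.39 and 1.36 in the TP-0903 libraries P4 and P17, against 1.09 and 1.11 in the control libraries. The ratio was 1.18 and 1.24 in the AXL shRNA libraries P3 and P15, against 1.08 and 1.09 in the control shRNA libraries. Neither comparison overlapped, and each gave the smallest p that the exact permutation test allows (0.333). Over all keratins, the type II to type I ratio of TPM was 1.998 and 1.67 in the AXL shRNA libraries, against 3.79 and 2.31 in the control shRNA libraries. Without KRT81 it was 1.66 and 1.55 in the AXL shRNA libraries, against 1.82 and 1.61 in the control shRNA libraries. In the TP-0903 libraries the ratio was 2.78 and 3.25, against 2.54 and 2.75 in the control libraries.

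KRT81 and KRT19 also followed the P number, in opposite directions. Within every group KRT81 was higher in the library with the low P number: 2332 TPM at P3 against 912 at P15 with AXL shRNA, 4475 against 2050.4 with control shRNA, 2779 at P4 against 1947 at P17 with TP-0903, and 3717 against 2330.15 in control cells. Low minus high P number, a 2-level term added after seeing the data, was 0.94 on the log2 scale for KRT81 (SE 0.16, edgeR adjusted p = 0.0222) and -0.69 for KRT19 (SE 0.14, adjusted p = 0.0373), where 4.92% of all genes were called. KRT8 and KRT18 gave 0.06 (SE 0.16, edgeR adjusted p = 0.894) and 0.09 (SE 0.15, adjusted p = 0.831).

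**Figure D4:**
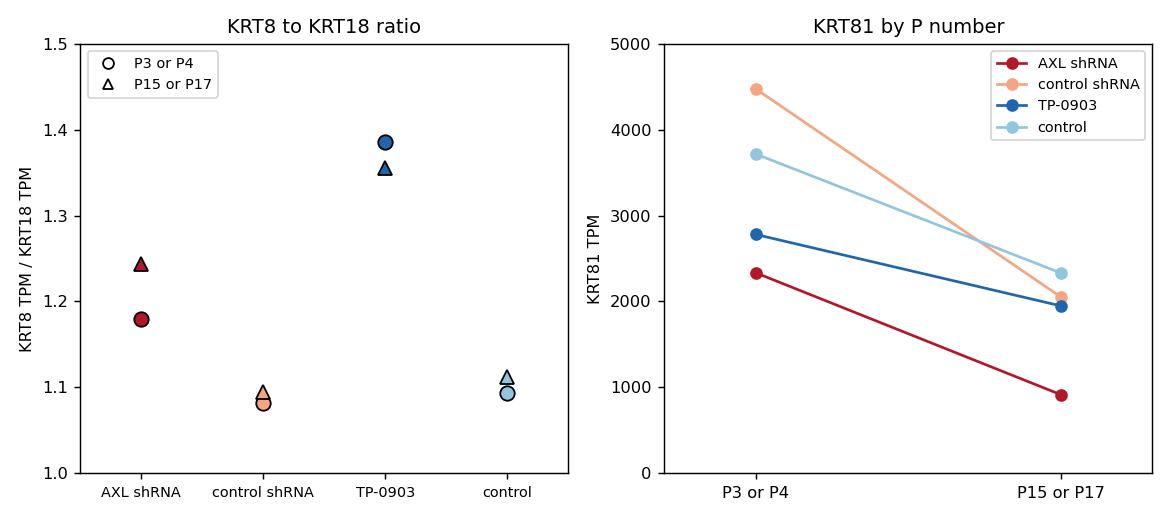
Left, the ratio of KRT8 to KRT18 TPM in each library, on an axis that starts at 1, with circles for P3 or P4 and triangles for P15 or P17. The TP-0903 libraries stand at 1.39 and 1.36, against 1.09 and 1.11 in the control libraries. Right, KRT81 TPM by P number with a line for each group. All 4 lines run downward, and the AXL shRNA line, at 2332 and 912 TPM, lies below the others.

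The genes whose levels ran most like KRT8, by Pearson's r of log2(TPM + 1) over the 8 libraries, were KRT18 (r = 0.979), the brain-type creatine kinase CKB (0.977), the glycolytic enzyme PGK1 (0.968), the membrane protein EMP1 (0.967) and the co-chaperone BAG2 (0.966). For KRT81 they were KRT86 (0.994), FASTKD1 (0.980), PREB (0.977), COPS7B (0.976) and TSN (0.973). These values describe 9960 genes over the same libraries, and have no test. KRT86, a hair keratin, had 23.1 and 8.80 TPM in the AXL shRNA libraries P3 and P15, against 40.9 and 18.1 TPM in the control shRNA libraries, and 37.6% of the 50-base stretches of KRT81 occur in it. Reads from those stretches cannot be told apart.

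Of 45 other keratin genes, 9 were tested. With AXL shRNA, 3 rose and 2 fell, where 37.5% of all tested genes were called and 18.5% were called higher. KRT16, the usual type I partner of KRT6A, had 3.70 and 5.48 TPM in the AXL shRNA libraries P3 and P15, against 0.44 and 0.82 TPM in the control shRNA libraries, and rose by 3.08 on the log2 scale (SE 0.36, edgeR adjusted p = 0.00118). KRT15, a basal type I keratin, rose by 3.44 (SE 0.53, edgeR adjusted p = 0.00297) and KRT20, a keratin of gut epithelium, by 3.26 (SE 1.01, adjusted p = 0.0398). KRT20 was low throughout, at 0.45 and 2.41 TPM in the AXL shRNA libraries P3 and P15, against 0.11 and 0.25 TPM in the control shRNA libraries. KRT10, a type I keratin of the upper epidermis, had 47.7 and 64.3 TPM in the AXL shRNA libraries, against 135 and 156 TPM in the control shRNA libraries, and fell by 1.08 (SE 0.30, edgeR adjusted p = 0.0259). KRT222 fell by 1.55 (SE 0.51, edgeR adjusted p = 0.0481). With TP-0903, edgeR called 0 of these 9, DESeq2 called 1, and 1 had an unadjusted p under 0.05. With the P number as a block, 4 of the 9 were called higher and 5 lower with AXL shRNA, and 1 higher and 3 lower with TP-0903, in fits that called 51.7% and 26.3% of all genes. The TP-0903 effect minus the AXL shRNA effect on KRT16 was -3.42 (SE 0.51, edgeR adjusted p = 0.00515). Of 149 keratin pseudogenes and antisense genes, 10 were tested and 3 rose with AXL shRNA, all copies of KRT8 or KRT18 (KRT8P3, KRT8P45 and KRT18P15), or 5 higher and 1 lower with the block. KRT8P3 holds 5.49% of the 50-base stretches of KRT8, and rose by 1.87 (SE 0.28, edgeR adjusted p = 0.00274).

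Some genes for proteins that tie keratin filaments to the cell's junctions rose, and others did not pass the test. Of 18 listed plakins and desmosome or hemidesmosome proteins, 16 were tested. With AXL shRNA 9 rose and 0 fell, with a median of 0.69 on the log2 scale against -0.01 over all genes, and with TP-0903 8 rose and 0 fell, with a median of 0.67 against -0.02. Over all genes, 37.5% were called with AXL shRNA (18.5% higher) and 11.3% with TP-0903 (4.9% higher). With the block, 11 of the 16 were called higher and 1 lower with AXL shRNA, and 11 higher and 0 lower with TP-0903. Those fits called 51.7% and 26.3% of all genes. On the log2(TPM + 1) scale, limma called 4 with AXL shRNA and 7 with TP-0903, where it called 36.3% and 9.70% of all genes. DST, a plakin that anchors keratin at hemidesmosomes, had 99.6 and 113 TPM in the AXL shRNA libraries P3 and P15, against 56.6 and 61.4 TPM in the control shRNA libraries. It rose by 1.22 (SE 0.11, edgeR adjusted p = 5.10e-04) with AXL shRNA and by 1.02 (SE 0.10, adjusted p = 0.00163) with TP-0903. ITGA6, the integrin subunit of hemidesmosomes, rose by 1.71 (SE 0.14, edgeR adjusted p = 4.02e-04) with AXL shRNA and by 0.75 (SE 0.13, adjusted p = 0.0138) with TP-0903. Periplakin (PPL) and the desmosomal cadherin DSC3 were higher with TP-0903 than their controls by 1.42 (SE 0.20, edgeR adjusted p = 0.00564) and 2.11 (SE 0.33, adjusted p = 0.00848). For both, the TP-0903 effect exceeded the AXL shRNA effect, by 1.29 (edgeR adjusted p = 0.0179) and 2.54 (adjusted p = 0.00951).

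Of 16 other intermediate filament genes, 14 were tested. With AXL shRNA 6 rose and 1 fell, and with TP-0903 3 rose and 3 fell, where 37.5% and 11.3% of all genes were called. With the P number as a block, 8 were called higher and 3 lower with AXL shRNA, and 6 higher and 3 lower with TP-0903. The blocked fits called 51.7% and 26.3% of all genes. Vimentin (VIM), the filament protein of mesenchymal cells, had 1217 and 986 TPM in the AXL shRNA libraries P3 and P15, against 366 and 394 TPM in the control shRNA libraries, and rose by 1.79 (SE 0.25, edgeR adjusted p = 0.00196). With TP-0903 the VIM difference was 0.53 (SE 0.24, edgeR adjusted p = 0.198), which passed with the P number as a block (adjusted p = 0.0127). INA, a neuronal filament protein, rose by 2.47 (SE 0.21, edgeR adjusted p = 4.86e-04) with AXL shRNA and by 1.25 (SE 0.20, adjusted p = 0.01001) with TP-0903. The nuclear lamin LMNB1 had 5.26 and 7.71 TPM in the TP-0903 libraries P4 and P17, against 40.3 and 70.9 TPM in the control libraries, and fell by 3.02 (SE 0.25, edgeR adjusted p = 7.85e-04).

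A list of 21 genes was drawn up as keratin-associated (filament turnover or transcription), and 20 were tested. Whether each of them regulates keratins was not tested. With AXL shRNA 4 rose and 3 fell, and with TP-0903 4 rose and 2 fell. These counts stand beside 37.5% and 11.3% of all genes called, so the share with AXL shRNA is close to that of all genes. SFN (14-3-3 sigma), which binds keratins, rose by 2.61 (SE 0.24, edgeR adjusted p = 5.58e-04) with AXL shRNA and by 1.16 (SE 0.23, adjusted p = 0.0193) with TP-0903. EPPK1, epiplakin, rose by 3.12 (SE 0.39, edgeR adjusted p = 0.00141) and 3.60 (SE 0.40, adjusted p = 0.00224), at no more than 1.07 TPM in any library. Among those that fell, KRTCAP2 changed by -1.44 (SE 0.13, edgeR adjusted p = 5.77e-04) with AXL shRNA. SOX2 changed by -1.40 (SE 0.27, edgeR adjusted p = 0.0174) with TP-0903. Of 19 genes of the cornified envelope and squamous differentiation, 8 were tested, and edgeR and DESeq2 called 0 in either comparison. Unadjusted, 0 had a p under 0.05 with AXL shRNA and 1 with TP-0903, and limma on log2(TPM + 1) called 1 and 0. With the block, 2 were called lower with AXL shRNA and 0 with TP-0903, in fits that called 51.7% and 26.3% of all genes.

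Of 10 markers of A549 and lung epithelium, 7 were tested, and 4 rose with AXL shRNA (KRT8, KRT18, EPCAM and AKR1B10), while edgeR called 0 with TP-0903 (1 by DESeq2, 1 at an unadjusted p under 0.05 and 1, lower, with the block). KRT8 and KRT18 are on this list as well as among the 10 keratins, so their values repeat results given above. Over all tested genes, 37.5% were called with AXL shRNA (18.5% were called higher) and 11.3% with TP-0903. With the block these shares were 51.7% and 26.3%. Markers of other cells were read beside these results. Of 12 basal and squamous markers without the 10 genes, 10 were above 0 in the AXL shRNA libraries, and their summed level was 81.4 to 98.9 TPM there, against 157 to 183 TPM in the control shRNA libraries, with KRT1 and SPRR1B at 0 in every library. Most of that sum is KRT10. The other 11 markers summed to 33.7 to 34.7 TPM in the AXL shRNA libraries, against 21.9 to 27.2 TPM in the control shRNA libraries. Of the 7 basal markers tested, KRT15 and NGFR rose and KRT10 fell, a share close to that of all genes. NGFR was at no more than 0.89 TPM in any library. TP63, the basal cell factor, had 7.97 and 7.19 TPM in the AXL shRNA libraries P3 and P15, against 3.86 and 9.12 TPM in the control shRNA libraries. Of 8 fibroblast markers, 8 were above 0 in the AXL shRNA libraries at a summed 27.9 to 50.2 TPM, against 6 in the control shRNA libraries at 12.25 to 14.45 TPM, where COL1A2 and DCN were at 0. Of the 6 tested, 3 rose with AXL shRNA and 0 fell: COL3A1 by 4.29 on the log2 scale (SE 0.51, edgeR adjusted p = 0.00118), COL1A1 by 1.302 (SE 0.35, adjusted p = 0.0246) and LUM by 2.04 (SE 0.56, adjusted p = 0.0253). With the block, 5 were called higher. Of 8 blood markers, 7 were above 0 at a summed 17.2 to 19.2 TPM in the AXL shRNA libraries, against 5 at 17.7 to 28.5 TPM in the control shRNA libraries, where CD3E and HBA1 were at 0. Of the 4 tested, CD79A and HBA1 rose with AXL shRNA and CD14 fell, each at no more than 7.55 TPM in any library. Of 4 endothelial markers, 3 were above 0 in each group, at a summed 1.12 to 3.53 TPM in the AXL shRNA libraries and 0.22 to 1.23 TPM in the control shRNA libraries, with KDR at 0. CDH5, the only endothelial marker tested, was not called with AXL shRNA (2.18 on the log2 scale, SE 1.08, edgeR adjusted p = 0.15, or 0.00107 with the block). With TP-0903 the sums were 105 to 109 TPM for the basal, 12.3 to 19.2 TPM for the fibroblast, 12.3 to 16.96 TPM for the blood and 0.20 to 0.86 TPM for the endothelial markers, against 91.8 to 133, 15.7 to 16.4, 17.3 to 17.8 and 0.69 to 0.70 TPM in the control libraries. Their part in the keratin results was not tested.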

How the data were processed

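The measurement was RNA sequencing of 8 libraries. Per the submitters' processing notes, STAR (2.5.3a), RSEM and GRCh38 were used, and the labels name no strand setting. The deposited expected counts are the authors' RSEM estimates of reads per gene, not normalized. The TPM values the authors deposited correct each gene for its length and each library for its depth. The effective lengths deposited beside them, in bases, entered 1 alternative.

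Expected counts were rounded, filtered with filterByExpr (a minimum of 0.2835 CPM in 2 libraries, besides a total count) and scaled by TMM. A single edgeR (4.0.16) quasi-likelihood fit of all 8 libraries, 1 term per group, gave every test, with Benjamini-Hochberg adjustment over 17676 genes and a threshold of 0.05. The scripts were tested on simulated data. Same-numbered libraries of a treatment and its control deviated together from their group means (r = 0.444 and 0.45 across genes, against 0.171 to 0.309 between groups that share no number). The P number was therefore taken to pair libraries, and the blocked value stands beside a keratin result whose call it changes, or a list whose count it moves by over 1.5 times.

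Alternatives were DESeq2 (1.42.0) and its size factors, no filter, limma (3.58.1) on log2 TPM with pseudocounts of 1 and 0.1, effective lengths, the block, 4 libraries alone, summed copies and each library left out. The keratins and all lists were chosen with earlier results of these data known. Genes named beside the keratins were picked, per list, from the 4 most abundant and up to 3 with the smallest p in each comparison. Not all of those are named. Other called keratins, and EPCAM, NKX2-1, SFTPC and TP63 as markers, are named too. Depth sets the floor: 0 counts allow up to 3. Some sequences and 1 marker are not reported here.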

Additional observations from a re-analysis of the deposited data

Results flagged for a closer look

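The effects of TP-0903 and AXL shRNA, each against its own control, differed for 3 keratins by the test of the difference itself in the edgeR fit, and all 3 were lower with TP-0903. The TP-0903 effect minus the AXL shRNA effect was -1.64 on the log2 scale for KRT8, -1.79 for KRT18 and -9.29 for KRT6A.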

How the results depend on the processing

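The 8 keratins called with AXL shRNA became 5 to 8 when 1 library was left out (without KRT14, 7 became 5 to 7), 10 with no filter (9 higher and KRT81 lower) and 7 with its 4 libraries alone. The 2 called with TP-0903 became 4 with no filter (3 higher and KRT6A lower), 0 with limma on log2 TPM at either pseudocount, 1 with effective lengths, 1 with its 4 libraries alone and 0 to 1 when 1 library was left out. The 3 whose effects differed became 5 with no filter, 5 with the P number as replicate block and 2 to 4 when 1 library was left out. With the block, KRT81 also passed with AXL shRNA (9 called), KRT19 and KRT80 for the difference of the effects, and no other keratin of the 9 changed its call. Calls in other lists changed more often, as given with them. The main fit called 37.5% of all tested genes with AXL shRNA, 11.3% with TP-0903 and 20.6% for the difference of the effects. With no filter these shares were 25.05%, 11.3% and 16.19%. With the 4 libraries of each comparison alone, 31.5% were called with AXL shRNA and 9.72% with TP-0903. For TP-0903, limma called 9.70% and 9.37% at pseudocounts of 1 and 0.1, and the fit with effective lengths 9.45%. Some values that missed the threshold changed sign. With TP-0903, KRT18 was 0.0012 with DESeq2's size factors and with DESeq2, and 0.18 and 0.21 without TP-0903 P17 or control P4 (range -0.23 to 0.21 with 1 library left out). KRT14 was -0.25 with its copies summed and -2.24 without TP-0903 P17 (range -2.24 to 3.78). KRT6A was 0.73 without control P17 (-4.47 to 0.73), KRT80 -0.043 without TP-0903 P17 (-0.043 to 0.71) and KRT81 0.066 without control P4 (-0.61 to 0.066). For the difference of the effects, KRT17 was 0.099 on log2(TPM + 1), 0.033 without control shRNA P3, 0.061 without AXL shRNA P3 and 0.085 without control P4 (-1.23 to 0.085), and KRT81 was -0.052 without AXL shRNA P15 and -0.29 without control shRNA P3 (-0.29 to 1.28). The cause was not tested. On log2 TPM with pseudocounts of 1 and 0.1, the median gene stood at -0.15 and -0.21 with AXL shRNA, and 31.3% of that comparison's calls were higher with limma at pseudocount 1, against 49.4% with edgeR. For the difference of the effects these shares were 63.5% and 47.6%. Leaving out 1 library leaves an arm of 1, which is assumed to vary like the other groups. Each such fit called a smaller share of all tested genes than the main fit. All of them but the fit without AXL shRNA P3 tested 10 keratins rather than 9. KRT5 then passed the filter through AXL shRNA P3 alone, so the counts from those fits and with no filter can include KRT5. KRT5 and KRT14, with at most 41.2 expected counts in a library, are limited by depth.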
